A study of Homo sapiens with 3 samples.

Results

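The zinc finger genes of human chromosome 19 were taken as all protein-coding genes of that chromosome whose symbol is ZNF followed by a number and at most 1 letter. The rule gave 246 genes of the 61193 genes with a listed transcript, 83 on the short arm and 163 on the long arm. RNA had been measured by 3′-end sequencing, in which reads come from the last part of each transcript, in 3 replicates of HEK293T. These cells descend from human embryonic kidney and express the large T antigen of SV40, and they were grown in DMEM with fetal bovine serum and penicillin-streptomycin, without treatment. There was 1 condition and no control group, so no difference between conditions was tested. The study's methods describe the replicates as independent and biological.

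Zinc finger genes of this kind encode proteins in which each finger is a short loop that holds a zinc ion between paired cysteines and histidines and reads a few bases of DNA. Many also carry a KRAB domain, which binds the corepressor TRIM28 and brings in enzymes and readers of repressive histone marks, and a well-known set of targets is the retroelements. The genes arose by tandem duplication and lie in large clusters on chromosome 19, so neighbours often resemble each other in sequence.

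The repeat that makes these genes alike can be read in their coding sequence. The canonical GENCODE transcripts of the 246 members were translated, and each was searched for C2H2 fingers, written as cysteine, 2 to 4 residues, cysteine, 12 residues, histidine, 3 to 5 residues and histidine. The number of fingers ran from 1 in ZNF428 to 36 in ZNF208, with a median of 12. A stretch of 84 bases, which is 1 finger with its linker to the next, was found within 1 exon in 242 members. The stretches shown are from ZNF358, ZNF121 and ZNF91 and from the adjacent genes ZNF430 and ZNF714, with the 63 bases of the only finger of ZNF428, because these members carry results described here. They lie in GRCh38 at chr19:7519699-7519782 on the plus strand (ZNF358), chr19:9566594-9566677 on the minus strand (ZNF121), chr19:21056927-21057010 on the plus strand (ZNF430), chr19:21117103-21117186 on the plus strand (ZNF714), chr19:23362094-23362177 on the minus strand (ZNF91) and chr19:43607635-43607697 on the minus strand (ZNF428). They are written 5′ to 3′ on the coding strand, and capitals mark the codons of the cysteines and histidines that hold the zinc.
ZNF358: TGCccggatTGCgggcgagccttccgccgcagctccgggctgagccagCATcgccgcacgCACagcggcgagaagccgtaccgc
ZNF121: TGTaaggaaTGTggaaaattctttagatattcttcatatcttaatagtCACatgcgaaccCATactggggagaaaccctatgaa
ZNF430: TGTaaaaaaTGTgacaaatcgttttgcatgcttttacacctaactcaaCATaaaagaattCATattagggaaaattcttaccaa
ZNF714: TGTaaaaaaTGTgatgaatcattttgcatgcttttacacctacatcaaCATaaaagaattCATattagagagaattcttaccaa
ZNF91: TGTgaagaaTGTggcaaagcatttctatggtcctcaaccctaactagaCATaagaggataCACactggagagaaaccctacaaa
ZNF428: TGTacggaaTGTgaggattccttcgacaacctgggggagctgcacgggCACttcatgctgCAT

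The stretches of the neighbours ZNF430 and ZNF714 had 77 of 84 bases in common, 91.7%. ZNF430 and ZNF91, which lie in the same cluster, had 64.3% in common, and ZNF208 and ZNF91 of that cluster had 79.8%. ZNF121 and ZNF358, which lie in another, had 46.4%. Across clusters, ZNF121 and ZNF91 had 67.9% in common, ZNF430 and ZNF121 had 58.3%, and ZNF358 and ZNF579 had 52.4%. In these pairs likeness did not always follow the cluster. Each value compares only the chosen finger of each gene, which was finger 2 in ZNF91 and finger 1 in the other genes compared. Reads can be assigned to a member only where its 3′ end differs from that of its relatives. In 186 members, under 10% of the 31-base words in the last 300 bases of the transcript were found in another gene.

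The libraries held 7019253, 6262175 and 8521624 counts. A count of 0 allows up to 3 counts, which is 0.427, 0.479 and 0.352 CPM in replicates 1, 2 and 3 and covers counting error only. CPM is the count of a gene per 1000000 counts of its library. Genes that every human cell uses were listed at or near 0 in these tables. GAPDH had 0 counts in each replicate and ACTB had 1, 1 and 1. A low value in these files therefore does not show that a gene was silent. The low values moved with how the transcripts overlap: the last 300 exonic bases of GAPDH lay 0% in a stretch covered by a single listed transcript. Among all protein-coding genes, 53.2% of the 8439 whose 3′ end lay at least 50% in a single transcript reached 1 TPM. The share was 27.2% of the other 11487, whose 3′ end is here called shared or mostly shared. The rest of such an end was covered by several listed transcripts, including those of other genes on the same strand, or by none. TPM is the count divided by transcript length and scaled to 1000000 per library. The main results are therefore also given for the 128 members with a 3′ end mostly in 1 transcript. The part of the overlap in any single value was not tested.

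Of the 246 members, 124 had a mean TPM of at least 1 over the replicates, which is 50.4%. Among all 19926 protein-coding genes the share was 38.2%. Above 3 counts in every replicate were 133 members, 54.1%, against 39.5% of protein-coding genes, and at a mean CPM of at least 1 were 131 members, 53.3%, against 39.0%. No count in any replicate was listed for 45 members, 18.3%, against 36.5%. The members were thus listed above these limits more often than protein-coding genes at large. A 3′ end mostly in 1 transcript was also more frequent among them, 52.0% against 42.4%. Within genes that had such a 3′ end, 67.2% of the members and 53.2% of protein-coding genes reached 1 TPM. The calls were stable across the replicates, with 111 members at 1 TPM or more in all of them, 113 in none and 22 in some.

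High levels were less frequent. Expressed genes were divided at the quartiles of the 13296 genes at 1 TPM or more, 2.40 and 24.1 TPM. Above the upper quartile were 14 members, 5.69%, against 12.5% of protein-coding genes, while 84 members were in the medium range and 26 in the low range. The median over the members was 1.27, 1.10 and 0.750 TPM in replicates 1, 2 and 3. Together the members held 0.206%, 0.290% and 0.175% of all TPM. A single gene, ZNF428, made up 36.2% of the members' mean TPM, and the 12 highest members made up 64.0%. Both shares depend on transcript length, by which TPM divides, and the counts of ZNF428 lay on a transcript of 1162 bases. Its share of the members' counts was smaller, as given below.

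**Figure D1:**
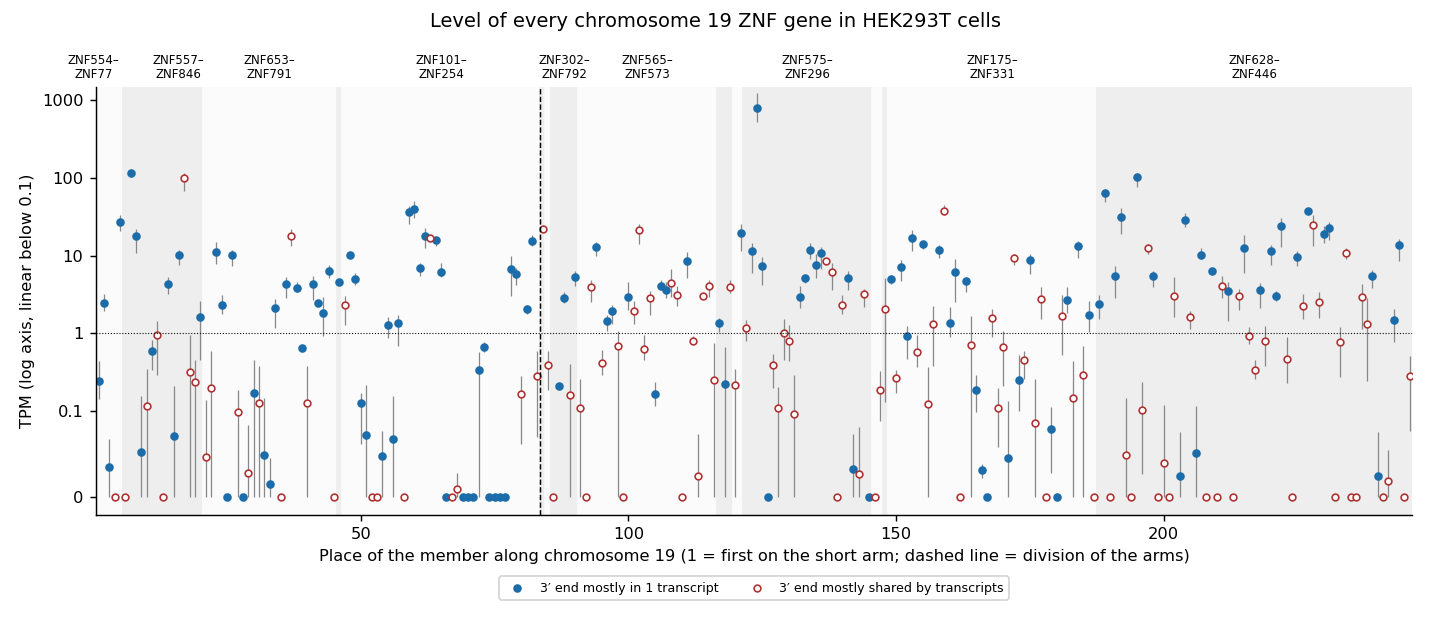
Each point is the mean TPM of a member over 3 replicates, in the order of the members along chromosome 19, and the line through it spans the lowest to the highest replicate; the vertical axis is logarithmic and linear below 0.1. Shading alternates between clusters, the dotted line is 1 TPM and the dashed line divides the 83 short-arm from the 163 long-arm members. ZNF428 stands above all others, and most of the points at 0 on the long arm are members with a shared 3′ end.

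The difference from the rest of the chromosome was taken as the median of log2(TPM + 1) in each replicate. The median of the members exceeded that of the 1224 other protein-coding genes of chromosome 19 by 1.13, 1.07 and 0.81, a mean of 1.00 ± 0.17 (SD, n = 3). With 3 replicates the exact two-sided sign-flip permutation test cannot go below p = 0.25, the value it gave, or 0.30 after Benjamini-Hochberg adjustment over 6 comparisons. Among genes at 1 TPM or more the direction turned: the difference in medians was -0.68. The members were listed as expressed more often than their neighbours on the chromosome, 50.4% against 30.4%, but those expressed stood at lower levels. A 3′ end mostly in 1 transcript was found in 52.0% of the members and 33.6% of these neighbours. Within such genes, 67.2% of the members and 44.8% of 411 neighbours reached 1 TPM. The difference in medians was then 1.61 ± 0.28 (SD, n = 3, exact sign-flip permutation test, p = 0.25, adjusted p = 0.30). Against the 262 ZNF genes of other chromosomes the difference was -0.07 ± 0.12 (exact sign-flip permutation test, n = 3, p = 0.75, adjusted p = 0.75), and 51.9% of those genes reached 1 TPM. Their upper category was fuller, with 38 genes or 14.5% against the members' 5.69%. With only genes whose 3′ end was mostly in 1 transcript, 67.2% of the members and 67.5% of the other ZNF genes reached 1 TPM, and the members' median was lower by -0.74, -0.49 and -0.72 in replicates 1, 2 and 3 (exact sign-flip permutation test, n = 3, p = 0.25, adjusted p = 0.30).

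The highest member was ZNF428 (ENSG00000131116, chr19:43607224-43619629, minus strand, GRCh38), which encodes a protein of 188 residues with 1 finger. Its TPM was 532, 1251 and 642 and its counts were 2806, 5575 and 4978. All members together had 26350, 26348 and 27852 counts. Replicate 2 was well above both others, and on the CPM scale the highest replicate was 2.23 times the lowest, so the level of this gene is known only to about that factor. By TPM it was above every other member in each replicate, while in counts ZNF121 exceeded it in replicate 1. ZNF358 (chr19:7515292-7521025), with 9 fingers, followed with 115, 131 and 102 TPM and counts of 1024, 986 and 1343. ZNF787 (chr19:56087366-56121295), with 7 fingers, had 114, 116 and 76.3 TPM. ZNF121 (chr19:9560329-9584504), with 9 fingers, had 118, 113 and 69.1 TPM. These 3 overlapped and cannot be ranked by TPM.

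ZNF121 stood out by counts. Its 3828, 3122 and 3309 counts gave the second highest mean CPM of the members, and all lay on a single transcript of 7177 bases, so that the division by length lowered its TPM. That transcript was not the canonical one, and the 3′ end of the canonical transcript was mostly shared. ZNF836 showed the opposite. It had 106, 106 and 144 counts, 47.5% of them on a transcript of 612 bases annotated as a target of nonsense-mediated decay, and its TPM came to 34.1, 44.5 and 33.4. By TPM ZNF836 was among the 12 highest, whereas by CPM it was 53rd of the members. In 3′-end libraries 1 transcript gives about 1 read whatever its length, so the CPM order is the one that does not depend on transcript length. The low, medium or high category was the same by TPM and by CPM in 196 of the 246 members.

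The other members among the 12 highest had clearly measured levels. ZNF579 (chr19:55576774-55580848) had 71.3, 70.7 and 48.7 TPM. ZNF714 (chr19:21082159-21125270) had 39.9, 50.3 and 30.8 TPM. ZNF552 (chr19:57803841-57814913) had 39.1, 36.6 and 37.0 TPM. By TPM the last was the steadiest of the group, and it was the highest member with a KRAB pattern. ZNF430 (chr19:21020634-21060050) had 43.7, 41.7 and 25.9 TPM. ZNF784 (chr19:55620741-55624566) had 34.0, 41.4 and 18.8 TPM. ZNF264 (chr19:57191500-57222846) had 23.3, 35.4 and 29.0 TPM. ZNF77 (chr19:2933218-2944971) completed the group with 27.8, 33.8 and 21.0 TPM. From ZNF714 downwards the ranges of neighbours in this order overlapped.

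**Figure D2:**
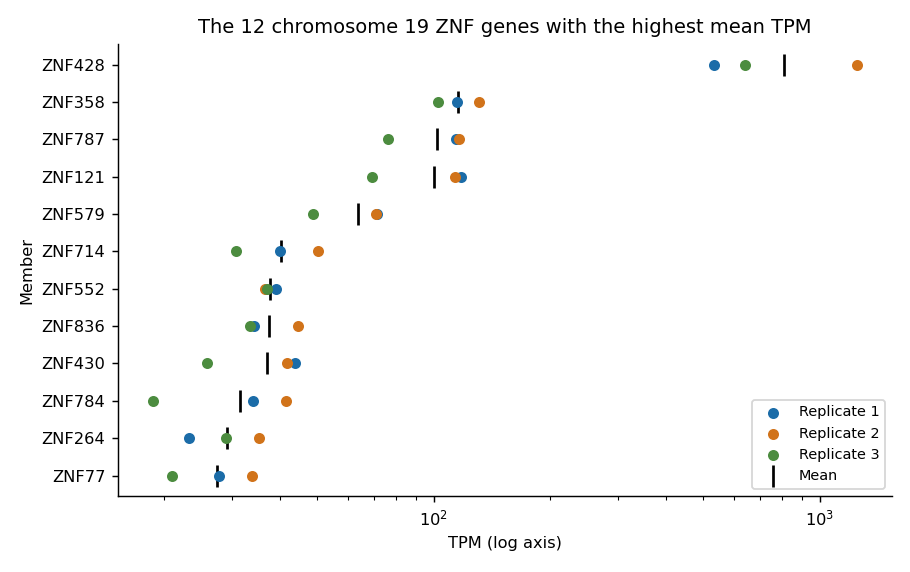
TPM of the 12 members with the highest mean, on a logarithmic axis; coloured points are the 3 replicates and black bars the means. ZNF428 lies apart at 532 to 1251 TPM, and from ZNF714 downwards the replicates of adjacent members overlap.

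Replicate 3 lay lowest for most of these genes. Of the 102 members with at least 20 counts in every replicate, 90 had their TPM in replicate 3 below the mean of the other replicates, 88.2%, and among protein-coding genes the share was 85.4%. Mitochondrial genes took 22.8%, 15.4% and 44.2% of all TPM in replicates 1, 2 and 3. With these genes left out, the median log2 ratio of replicate 3 to the others over the 102 members went from -0.66 to -0.12. What else sets replicate 3 apart was not tested. Over the same members the median coefficient of variation of the CPM was 13.7%, where counting alone gives 9.06%. The widest ratios of highest to lowest CPM were 2.69 in ZNF480, 2.58 in ZNF724 and 2.55 in ZNF749. ZNF480 had 145, 158 and 80 counts, ZNF724 had 92, 106 and 56, and ZNF749 had 83, 75 and 40, with replicate 3 lowest in each.

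The limit of 1 TPM did not separate the members at a gap. Just above it were ZNF737 with 1.27 ± 0.39, ZNF575 with 1.18 ± 0.35 and ZNF155 with 1.00 ± 0.54 TPM (SD, n = 3). Just below were ZNF559 with 0.95 ± 0.59, ZNF613 with 0.93 ± 0.40 and ZNF549 with 0.91 ± 0.26 TPM. None of these 6 differed from 1 by more than its spread.

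Members known for a function had widely different values. ZNF91, a repressor of SVA retroelements, had 100, 107 and 110 counts, or 6.32, 6.85 and 4.17 TPM, with its 3′ end wholly in 1 transcript. ZNF93, a repressor of LINE-1 elements from the same cluster, had 0, 0 and 4 counts, again with a 3′ end wholly in 1 transcript. These values lie far apart in each replicate. ZNF274, which brings the histone methyltransferase SETDB1 to the 3′ ends of zinc finger genes, had 34, 10 and 51 counts with a shared 3′ end, and replicate 2 was low. ZNF224, a repressor of the aldolase A gene, had 14.7, 11.8 and 9.19 TPM. ZNF350, a partner of BRCA1 also called ZBRK1, had 17.7, 21.5 and 11.4 TPM. Both were clearly expressed. ZNF649 had 8.73, 7.83 and 4.74 TPM, and ZNF382 had 1.74, 1.56 and 1.08 TPM. ZNF331, an imprinted gene, ZNF146 and ZNF671 were listed at 0 in each replicate, and the 3′ end of each lay 0% in a single transcript. ZNF473, a component of the machinery that processes histone mRNA, had 1, 12 and 4 counts. Its mean of 2.04 TPM rests on replicate 2, since the mean without it was 0.47 TPM.

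Along the chromosome the members fell into 16 clusters, cut wherever 2 neighbours were more than 1 Mb apart. Of these, 9 clusters held at least 5 members and 235 members in all. The arms were divided at the longest stretch without a protein-coding gene, chr19:24129969-29205319, which is 5.08 Mb long and holds the centromere. On the short arm 36 of 83 members reached 1 TPM, 43.4%, and on the long arm 88 of 163, 54.0%. The median of log2(TPM + 1) on the short arm was lower than on the long arm by -0.79, -0.61 and -0.69, a mean of -0.70 ± 0.09 (SD, n = 3; exact sign-flip permutation test, p = 0.25, adjusted p = 0.30). With 3′ ends mostly in 1 transcript, 32 of 57 short-arm and 54 of 71 long-arm members reached 1 TPM, 56.1% and 76.1%, and the difference in medians was -1.11 ± 0.16. With shared 3′ ends the shares were 4 of 26 and 34 of 92, 15.4% and 37.0%, and the median was 0, 0.0144 and 0 TPM on the short arm and 0.429, 0.411 and 0.345 TPM on the long arm. Among members at 1 TPM or more the direction turned, with a difference of 0.26. The lower median of the short arm thus went with fewer members at 1 TPM or more. Of the short-arm members below 1 TPM, 12 lay in a single run from ZNF100 to ZNF730, described below. In 10 of these 12 the 3′ end lay mostly in 1 transcript. The difference was not confined to the cluster with this run. In every short-arm cluster with at least 5 members, the share at 1 TPM or more was below the 54.0% of the long arm. With 3′ ends mostly in 1 transcript, the share in each of these clusters was likewise below 76.1%. Some long-arm clusters were below these shares too.

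Over the 9 clusters with at least 5 members, the share of members at 1 TPM or more ran from 40.0% to 62.5%. The lowest of these 9 were the clusters from ZNF554 to ZNF77 (2 of 5), from ZNF557 to ZNF846 (6 of 15) and from ZNF302 to ZNF792 (2 of 5). The highest of the 9 was the cluster from ZNF575 to ZNF296, with 15 of 24. Among members with a 3′ end mostly in 1 transcript the shares spread further. The cluster from ZNF628 to ZNF446 at the end of the long arm then had 22 of 25 members at 1 TPM or more, 88.0%, and the cluster from ZNF565 to ZNF573 had 7 of 8. The large short-arm cluster from ZNF101 to ZNF254 had 14 of 28. The cluster at the end of the long arm also held 7 of the 14 members of the high category. They were ZNF787, ZNF579, ZNF552, ZNF784, ZNF264, ZNF551 and ZNF587B. This is 11.9% of its 59 members, against 5.69% of all members and 12.5% of all protein-coding genes. The share was higher in the small clusters from ZNF554 to ZNF77, 1 of 5, and from ZNF557 to ZNF846, 2 of 15. By CPM, 5 of the 16 members of the high category lay in the cluster at the end of the long arm. The clusters from ZNF101 to ZNF254 and from ZNF557 to ZNF846 then held 4 and 3. The cluster from ZNF653 to ZNF791 had 11 of 25 members at 1 TPM or more and none in the high category.

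The highest member of a cluster was not always high by these limits. In the cluster from ZNF653 to ZNF791 it was ZNF44 with 18.8, 22.0 and 13.3 TPM, and in that from ZNF565 to ZNF573 it was ZNF829 with 542, 493 and 462 counts and a mean of 21.3 TPM. Both had shared 3′ ends. In the cluster from ZNF302 to ZNF792 it was ZNF792 with 5.74, 6.35 and 4.02 TPM. The remaining 11 members lay alone or in groups of at most 3. Among these ZNF526 had 22.3, 25.7 and 11.6 TPM, ZNF333 had 4.50, 4.25 and 4.91, ZNF780A had 4.85, 3.62 and 3.36 and ZNF546 had 1.46, 1.57 and 1.03. ZNF507, ZNF574, ZNF780B and ZNF114 had means of 0.392, 0.218, 0.225 and 0.188 TPM, and ZNF541 was listed at 0. ZNF536 and ZNF473 complete these 11.

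**Figure D3:**
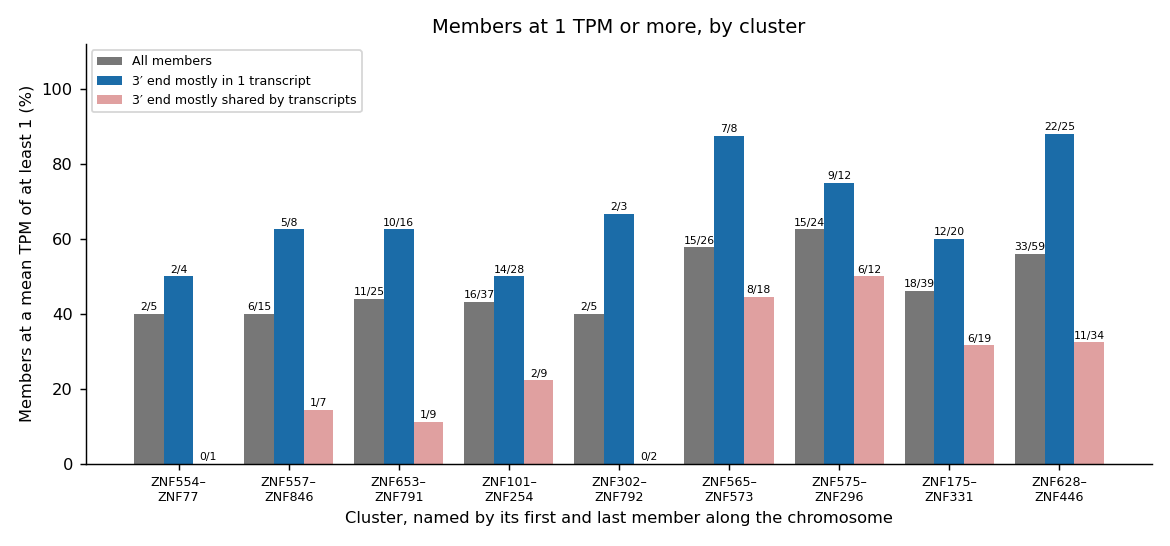
Percentage of members at a mean TPM of at least 1 in each of the 9 clusters with at least 5 members, for all members (grey), those with a 3′ end mostly in 1 transcript (blue) and those with a shared 3′ end (pink); the numbers over the bars are members at 1 TPM or more over members in the class. The grey bars lie between 40.0% and 62.5%, and the blue bar of the cluster from ZNF628 to ZNF446 reaches 88.0%.

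The cluster from ZNF101 to ZNF254 (chr19:19668796-24129968) held 37 members, 33 of them with a KRAB pattern, and its expressed and low members lay in blocks. The 7 members from ZNF430 to ZNF429 were all at 1 TPM or more. In order along the chromosome these were ZNF430, ZNF714, ZNF431, ZNF708, ZNF738, ZNF493 and ZNF429, and their means ran from 6.25 to 40.3 TPM. ZNF431 had 501, 389 and 511 counts, ZNF708 had 344, 346 and 330, ZNF738 had 158, 129 and 167, ZNF493 had 134, 87 and 191, and ZNF429 had 67, 77 and 91. The first 5 of this block were the 5 adjacent members with the highest mean log2(TPM + 1) of any 5 neighbours on the chromosome.

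Directly after it came the longest run below 1 TPM on the chromosome. The 12 members from ZNF100 to ZNF730 (chr19:21722771-23147221, 1.42 Mb) had means from 0 to 0.675 TPM. In 9 of them no count was listed in any replicate: ZNF100, ZNF43, ZNF257, ZNF676, ZNF729, ZNF99, ZNF723, ZNF728 and ZNF730. ZNF208, the member with the most fingers, had 0, 1 and 0 counts and ZNF98 had 1, 2 and 0. ZNF492 was the exception with 11, 11 and 22 counts, all above the limit of 3. The run ended abruptly, since its next neighbours ZNF724 and ZNF91 had 92, 106 and 56 and 100, 107 and 110 counts.

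Shared 3′ ends were rare in this run. In 10 of the 12 members, all but ZNF43 and ZNF208, the 3′ end lay mostly in 1 transcript, and in each of the 10 the canonical transcript was in the tables. At least 10% of the words at the 3′ end were found in another gene in 7 of the 12. ZNF100, ZNF99 and ZNF730 had 0 counts with the 3′ end wholly in 1 transcript and 0% of its words in another gene. Over all members, 14 of the 128 with a 3′ end mostly in 1 transcript had 0 counts in every replicate, 10.9%. Among the 8439 protein-coding genes with such a 3′ end the share was 26.4%. Of the 14 members, 8 lay in this run. The others were ZNF491, ZNF69, ZNF404, ZNF296, ZNF808 and ZNF665.

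**Figure D4:**
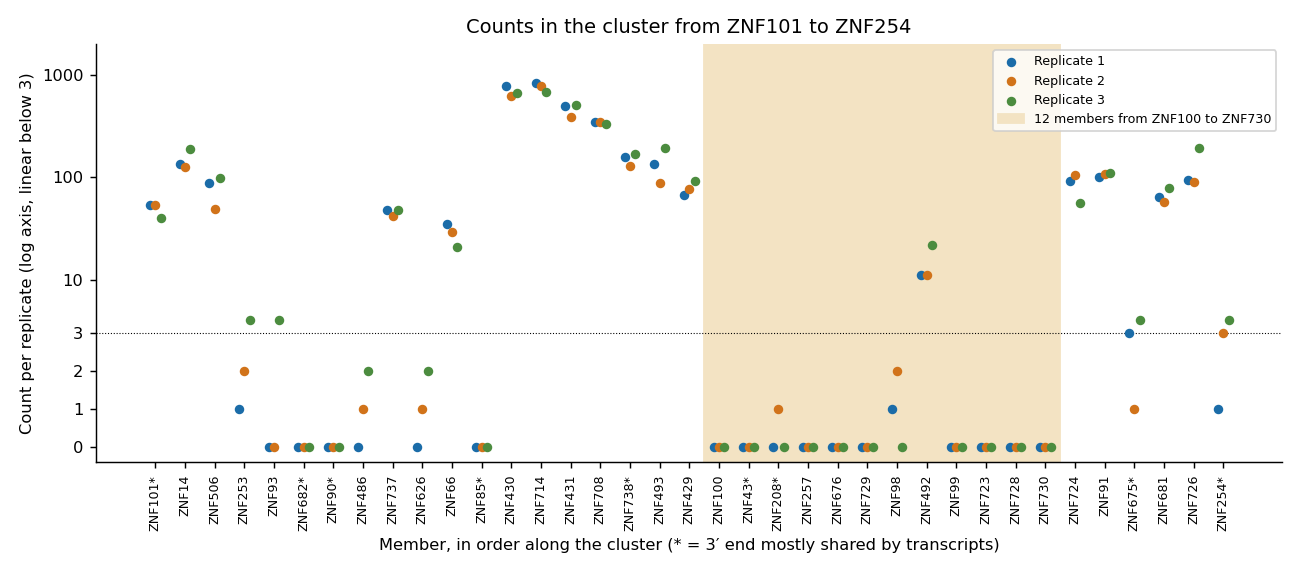
Counts in each replicate (coloured points) of the 37 members from ZNF101 to ZNF254 in order along the cluster, on an axis that is logarithmic above 3 and linear below; the dotted line is 3 counts and stars mark members with a shared 3′ end. The shaded 12 members from ZNF100 to ZNF730 lie at or near 0 except ZNF492, directly after a block with 67 to 823 counts.

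Other runs were shorter. In the cluster from ZNF575 to ZNF296 the 7 members from ZNF223 to ZNF227 (chr19:44051367-44237268) were all at 1 TPM or more, with means from 2.98 to 11.9 TPM. ZNF224 and ZNF234 led this run, ZNF234 with 257, 225 and 201 counts, and ZNF284, ZNF225 and ZNF226 had means of 5.13, 7.49 and 8.56 TPM. In ZNF226, 87.7% of the counts lay on a transcript of 734 bases with a retained intron. In ZNF227, 90.4% lay on 1 of 589 bases without a defined coding sequence. Division by such short lengths gives a high TPM for few counts. At the end of the long arm the 7 members from ZNF776 to ZNF417 were all at 1 TPM or more, and in this run ZNF552, ZNF587 and ZNF417 had means of 37.6, 18.9 and 22.7 TPM, while ZNF587B had 27.8, 33.9 and 13.4 TPM. On the short arm the 7 members from ZNF439 to ZNF844 (chr19:11848726-12081565) were all below it, with at most 5 counts in any replicate. In 6 of these 7 at least 10% of the words at the 3′ end were found in another gene.

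Over all 230 pairs of neighbours within a cluster the levels were hardly related, with a Spearman coefficient of 0.074 for the mean log2(TPM + 1), and it was 0.138 for the 47 pairs that are transcribed away from each other. Both neighbours were at 1 TPM or more in 58 pairs, 1 of them in 116 and neither in 56. When only members with a 3′ end mostly in 1 transcript were taken, each with the next such member, the coefficient was 0.366 over 116 pairs, and the pairs were 57, 38 and 21. It was 0.676 over the 27 pairs of the cluster from ZNF101 to ZNF254 and 0.217 over the 89 pairs of all other clusters. With members that also had under 10% of their words in another gene it was 0.192 over 81 pairs. These coefficients run over genes of the same 3 libraries, which are not independent, and are given without a test.

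Close relatives with like 3′ ends could not be told apart with certainty. ZNF443 had 56, 54 and 46 counts and its neighbour ZNF799 had 1, 0 and 0, the latter with a shared 3′ end. In each of them 36.3% of the words at the 3′ end were found in the other, so that the division of reads between them is uncertain. In all, 60 members had at least 10% of these words in another gene, and 24 of them reached 1 TPM, 40.0%, against 100 of the other 186, 53.8%. In ZNF324, ZNF805, ZNF177, ZNF208 and ZNF536 the words were shared nearly or wholly with an overlapping or read-through gene. Thus the 275, 252 and 459 counts of ZNF536, a repressor studied in neurons and the first member of the long arm, cannot be told apart from those of ENSG00000280061, which overlaps its 3′ end.

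The KRAB domain was searched as a pattern of its A box before the first finger, and 171 members had it. The members with it reached 1 TPM in 87 of 171 cases, 50.9%, and those without it in 37 of 75, 49.3%. The high category was split evenly, with 7 members from each side, which is 4.09% of those with the pattern and 9.33% of those without. None of the 6 highest members had it, and 5 of the 12 highest did. The pattern requires a tryptophan, and with a leucine allowed at that place, an alternative chosen after the data were seen, 188 members matched and 97 of them reached 1 TPM. The 17 further members lay in the cluster from ZNF575 to ZNF296, where the matches rose from 2 to 19 of 24 and which holds ZNF224. The number of fingers was not related to the level (Spearman coefficient -0.03 over 246 members). At 1 TPM or more were 5 of 13 members with 1 to 5 fingers, 35 of 72 with 6 to 10, 56 of 105 with 11 to 15 and 28 of 56 with 16 or more.

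The study asked where i-motifs form, which are DNA structures of intercalated cytosine pairs that C-rich strands can fold into. The promoters of the members were therefore searched for 4 tracts of at least 3 C separated by 0 to 7 bases, and for the same with G, which is the motif on the other strand. RefSeq promoter windows (GRCh38.p14, from 250 bases before to 50 bases after the start) matched 216 of the 246 members. A C-tract match was found in 29 of them, 13.4%, and a G-tract match in 13, 6.02%. Among 21613 windows of protein-coding genes the shares were 17.2% and 19.4%, and among all 35116 windows 14.2% and 15.5%. The median GC content was 59.8% in the members and 62.3% in protein-coding genes.

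The C-tract matches were concentrated in 1 cluster. Of the 32 windows from ZNF175 to ZNF331 (chr19:51571283-53580269), 18 had a match, 56.2%, against 11 of the 184 windows elsewhere, 5.98%. The G-tract matches showed no such gathering there, with 0 of 32 in this cluster. In the cluster from ZNF101 to ZNF254 none of the 29 windows had a C-tract match, and in that from ZNF565 to ZNF573 none of 25. Matches of the cluster from ZNF175 to ZNF331 are given because neighbours share them, beside that of the highly expressed ZNF787. They lie in GRCh38 at chr19:52527514-52527532 (ZNF808, plus strand), chr19:52570144-52570161 (ZNF701, plus), chr19:52690612-52690629 (ZNF83, minus), chr19:52735167-52735184 (ZNF611, minus), chr19:53467608-53467625 (ZNF813, plus), chr19:52171697-52171717 (ZNF836, minus) and chr19:56121327-56121355 (ZNF787, minus), all upstream of the start. They are written 5′ to 3′ on the strand of the gene, and capitals mark the tracts.
ZNF808: CCCgCCCCggCCCCgCCCC
ZNF701: CCCgCCCCggCCCCgCCC
ZNF83: CCCgCCCCggCCCCgCCC
ZNF611: CCCgCCCCggCCCtgCCC
ZNF813: CCCaCCCCggCCCCgCCC
ZNF836: CCCgCCCacaccgCCCgtCCC
ZNF787: GGGGGGcaGGGagtaGGGagaaGGGGGGG

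The stretch of 18 bases in ZNF701 was the same in ZNF83 and ZNF808. On either strand it was found in 3 of the 216 member windows and in 25 of all 35116 windows, 0.0712%. The members with these matches were not expressed alike. ZNF701 had 46, 44 and 33 counts, ZNF813 had 42, 61 and 43, and ZNF808 had 0, 0 and 0. ZNF83 had 4, 1 and 2 counts and ZNF611 had 6, 1 and 6, both with shared 3′ ends. Within the cluster, 8 of the 18 members with a C-tract match and 6 of the 14 without one reached 1 TPM. Over all members 14 of 29 with a C-tract match, 5 of 13 with a G-tract match and 91 of 174 with neither did, which is 48.3%, 38.5% and 52.3%. A match is a string of letters, and whether an i-motif forms at these places was not measured in these data.

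**Figure D5:**
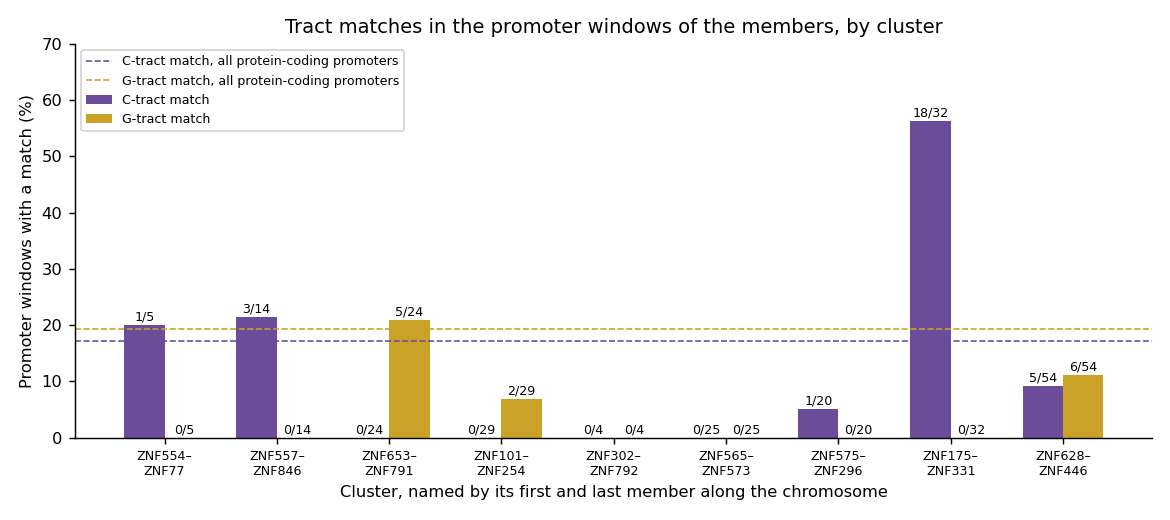
Percentage of the members' promoter windows with a C-tract (purple) or G-tract (yellow) match in each of the 9 clusters with at least 5 members; numbers over the bars are windows with a match over windows, and dashed lines are the shares over all protein-coding promoters, 17.2% and 19.4%. The C-tract bar of the cluster from ZNF175 to ZNF331 reaches 56.2%, and the other purple bars lie at or below 21.4%.

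The partners through which KRAB proteins silence their targets were described from a list of 19 genes, of which 11 were at 1 TPM or more, 57.9%, against 38.2% of protein-coding genes. MPHOSPH8, a subunit of the HUSH complex, had 302, 344 and 171 TPM, and its partners TASOR and PPHLN1 had means of 55.9 and 28.7 TPM. SETDB1, the histone H3 lysine 9 methyltransferase of the pathway, had 61.2, 51.5 and 33.2 TPM, and its cofactor ATF7IP had a mean of 2.48 TPM. CBX3 and CBX5, which bind the methylated histone, had 119, 76.5 and 93.3 and 59.4, 68.3 and 52.2 TPM. All of these exceeded the median member. SUMO2, a small protein attached to TRIM28, had 115, 111 and 71.1 TPM. TRIM28, itself on chromosome 19, was listed at 3, 3 and 1 counts with its 3′ end 0% in a single transcript, like ACTB and GAPDH, so that its level is not known from these tables.

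Pooled over the members, most counts lay on coding transcripts. The files listed 1637 transcripts of the members, and 327 of them had a count in some replicate. Transcripts annotated as protein-coding took 97.3% ± 0.48 (SD, n = 3) of the members' counts, and those with a retained intron 1.17% ± 0.32. The canonical transcripts took 72.4% ± 2.32. The replicates ranked the members alike, with Pearson coefficients of log2(TPM + 1) of 0.979, 0.971 and 0.972 between replicates 1 and 2, 1 and 3, and 2 and 3.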

How the data were processed

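The authors deposited 1 table per replicate with 247541 transcripts. The submitters' processing notes name Trimmomatic 0.38.0, HISAT2 2.2.1 and featureCounts 2.2.1, and the study names GRCh38; how reads on several transcripts were counted is not given in the sources used here. The deposited counts are whole reads per transcript, the deposited length is in bases, and the TPM deposited by the authors is count over length scaled to 1000000. Version-free identifiers were joined to GENCODE version 44 (223558 matched), and count and TPM were summed per gene. Counts on unmatched transcripts were 0.158% to 0.166%.

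The members and lists were chosen with earlier results of these data known. Named members were the 12 highest, the highest of each cluster, the 6 most variable between replicates, those beside 1 TPM, at the arm ends and with the most or fewest fingers, and 9 known ones; ZNF350 and members of runs or sequence groups were named after their values were seen. Medians of log2(TPM + 1), with a pseudocount of 1, were compared by exact sign-flip tests over 3 replicates, without a count model, since there was 1 condition. Fingers and KRAB patterns were read from translated canonical GENCODE coding sequences, promoters from RefSeq. A 3′ end was taken as the final 300 exonic bases of a gene's canonical transcript. Python 3.11.15, pandas 2.3.3, numpy 2.4.6, scipy 1.17.1 and matplotlib 3.10.9 were used, and functions were tested on simulated data.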

Additional observations from a re-analysis of the deposited data

How the results depend on the processing

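The number of members at 1 TPM or more, 124, was 201 at any TPM above 0, 43 at 10 TPM or more, and 121 to 129 when a replicate was left out; above 3 counts in every replicate, leaving 1 out gave 133 to 140. The median of the members' mean TPM, 1.09, was 5.42 over members at 1 TPM or more, 1.58 with mitochondrial genes left out, 3.56 with 3′ ends mostly in 1 transcript, and 0.936 to 1.22 without 1 replicate. The members' share of all TPM, 0.224%, was 0.374% as a share of counts, 0.308% with mitochondrial genes left out, 0.191% to 0.248% without 1 replicate, and 0.143% without ZNF428. Among genes at 1 TPM or more the difference from other genes of the chromosome reversed to -0.68 and that between the arms to 0.26; fewer genes enter these medians. Without 1 replicate these differences were 0.94 to 1.10 and -0.74 to -0.65. The range of expressed shares over clusters with at least 5 members, 22.5 percentage points, was 26.8 with clusters cut at gaps of 0.5 Mb, 18.3 to 22.5 without 1 replicate, and 38.0 with 3′ ends mostly in 1 transcript. The coefficient between neighbours, 0.074, was 0.0513 to 0.0908 without 1 replicate and 0.366 with such 3′ ends; the cause was not tested. The alternatives on ZNF428, 3′ ends and the KRAB residue were chosen after seeing the data. For the 47 named members, 210 of 235 alternative values moved by less than 1 SD, and the other 25 rose when mitochondrial genes were left out. No paired analysis was possible because there is 1 group. Depth limits members under 3 counts, and shared 3′ ends limit 118 members.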

Other observations

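Other zinc finger genes of chromosome 19 carry the family names ZFP, ZIM, ZIK, ZSCAN or ZBTB or are read-through genes. Of these 21 genes, 7 were at 1 TPM or more. ZBTB7A, a repressor of the fetal globin genes, had 6880, 6268 and 4776 counts, more than any ZNF gene of the chromosome in replicates 1 and 2, and its TPM was 236, 254 and 111. ZFP14 had 15.3, 15.7 and 13.1 TPM and ZSCAN5A had 13.5, 13.8 and 10.4. ZFP28, ZSCAN22, ZFP30 and ZFP82 had means of 9.66, 7.47, 3.97 and 2.76 TPM.

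Of 18 ZNF pseudogenes of the chromosome, 2 were at 1 TPM or more. ZNF321P had 61, 24 and 54 counts, and ZNF887P had 10, 15 and 15. In 11 of the 18 no count was listed in any replicate.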
